A study of Mus musculus with 12 samples.

Results

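PI3K, FOXO and TSC growth control is followed here through 8 genes, *Foxo1*, *Foxo3*, *Foxo4*, *Akt1*, *Akt2*, *Tsc1*, *Tsc2* and *Ddit4*. They were chosen by name, and each of the 8 matched exactly 1 of the 55385 genes in the table of expression values. Spermatogonia of adult mouse testes were sorted and sequenced as 12 RNA-seq libraries in 6 groups of 2. WT Aundiff, the undifferentiated spermatogonia (E-Cadherin+, CD9 high, KIT-), and WT Adiff, the early differentiating spermatogonia (E-Cadherin+, CD9 medium, KIT+), came from untreated C57BL/6 males of 2 to 3 months. The remaining 4 groups were Aundiff of PRC1ctrl and PRC1cKO males of a C57BL/6 X FVB/NJ background, either untreated at 2 months or after Win18446.

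Both PRC1 genotypes lacked *Ring1* (*Ring1*-/-) and carried *Ddx4-Cre*, a transgene that deletes floxed alleles in germ cells only. PRC1cKO males were *Rnf2* F/-, and PRC1ctrl littermates were *Rnf2* F/+, so the controls had 1 intact *Rnf2* allele and no functional *Ring1*. PRC1 is the Polycomb complex whose catalytic subunits RING1 and RNF2 ubiquitinate histone H2A. Win18446 blocks retinoic acid synthesis and with it the entry of spermatogonia into differentiation. It was injected daily for about 30 days from an age of 1 month, each time as 50 µl of a 40 µg/µl solution, and testes were taken 24 h after the last dose. Cells were pooled for each replicate, about 7000 for the untreated PRC1 libraries, made with a Smart-Seq2 kit, and 100000 to 150000 for the WT and Win18446 libraries, made with the TruSeq stranded mRNA kit.

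Growth factor receptors such as KIT and RET activate PI3K, whose lipid product recruits the kinases AKT1 and AKT2 to the membrane. Active AKT phosphorylates the transcription factors FOXO1, FOXO3 and FOXO4, which then leave the nucleus, and phosphorylates TSC2, which relieves the block that the TSC1-TSC2 complex places on the kinase complex mTORC1. DDIT4 (REDD1) is a stress-induced protein that acts through the TSC complex to hold mTORC1 down. In the testis, FOXO1 is known as a marker of undifferentiated spermatogonia that is needed to maintain them, and mTORC1 activity accompanies their differentiation. RNA levels do not show phosphorylation or localization, by which most of these proteins are controlled.

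Values are TPM, the share of a library's transcripts that a gene takes, corrected for transcript length. The number of reads behind a value is unknown, and the spread between the 2 libraries of a group is the measure of precision. In bulk samples, fewer cells of a type and less RNA per cell cannot be told apart. Differences were tested with limma on log2(TPM + 1), and a gene passed the test at an adjusted p under 0.05 over all genes tested in a comparison. The 4 Smart-Seq2 libraries stood apart, with 12.5% to 16.7% of TPM in mitochondrial genes against 4.28% to 6.69% in the 8 TruSeq libraries. *Ring1* was at 0.25 TPM or less in all 8 libraries of the PRC1 mice and at 8.61 to 19.9 TPM in WT. *Rnf2* was not lower under the label PRC1cKO, where it stood at 56.7 and 67.5 TPM untreated against 28.3 and 47.6 in PRC1ctrl. After Win18446 it stood at 86.2 and 93.1 TPM in PRC1cKO against 67.2 and 78.1 in PRC1ctrl. The deletion therefore could not be checked from the table, which holds 1 value for the whole gene, and the genotypes below are those of the labels.

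The order of the groups was much the same for most of the 8 genes. Group means of *Foxo1*, *Foxo3*, *Foxo4*, *Akt2*, *Tsc1* and *Ddit4* were highest in PRC1ctrl Aundiff after Win18446, 6 of 8 genes, although this held for 3 (*Foxo1*, *Tsc1* and *Ddit4*) after median-of-ratios scaling. Means of *Akt1* and *Tsc2* were highest in WT Adiff, where their libraries overlapped those of the next group. By TPM all 8 genes had their lowest means in the untreated PRC1 libraries. After median-of-ratios scaling this did not hold for *Tsc2*, for which WT Aundiff went from rank 3 to rank 4 of the 6 means. Levels set side by side across kits, strains and treatments are a description, since these cannot be told apart.

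**Figure D1:**
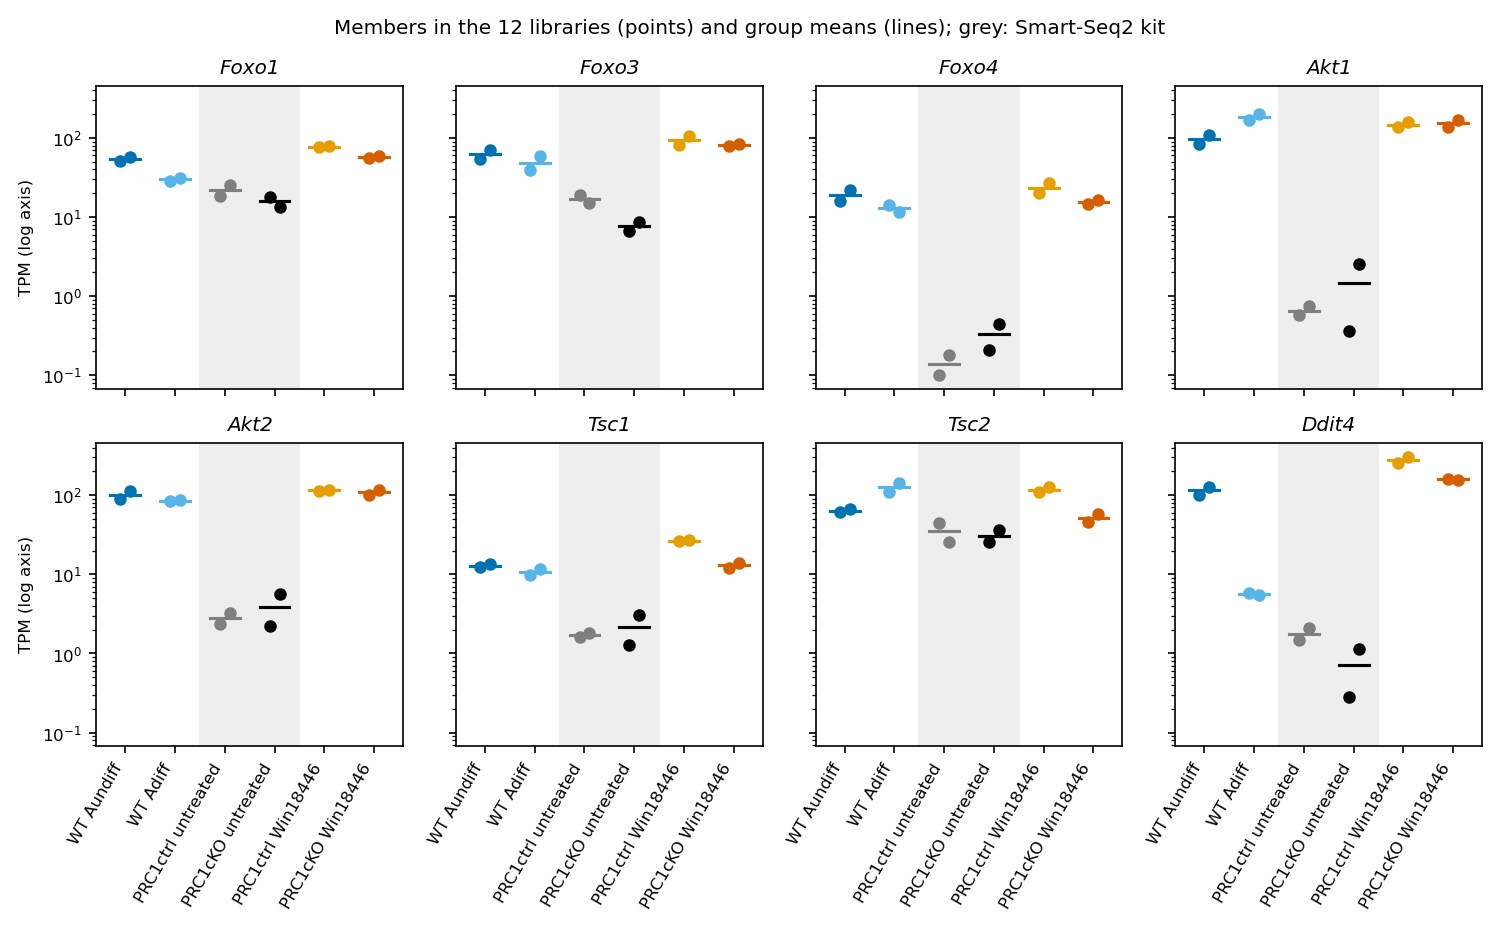
TPM of the 8 genes (log axis) in each of the 12 libraries (points) with group means (lines). *Ddit4* fell from 102 and 128 TPM in WT Aundiff to 5.87 and 5.47 in WT Adiff, and *Foxo4* and *Akt1* lay at or under 2.55 TPM in all 4 Smart-Seq2 libraries, which are shaded grey.

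The comparison of WT Adiff with WT Aundiff asked what changes at the onset of differentiation. *Ddit4* and *Foxo1* fell and *Akt1* and *Tsc2* rose, while *Foxo3*, *Foxo4*, *Akt2* and *Tsc1* did not pass the test. That is 4 of 8 genes, 2 higher and 2 lower, against 38.1% of the 15470 genes tested, 23.4% higher and 14.7% lower. The libraries of 7 genes, all but *Foxo3*, did not overlap between the groups, as for 72.1% of genes tested. Over the 8 genes the median log2 fold change was -0.30, and over all genes tested it was 0.15, a shift that median-of-ratios scaling removed.

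*Ddit4* (chr10:59949669-59951834, minus strand, GRCm38, 3 exons) had by far the largest change of the 8. It stood at 102 and 128 TPM in the Aundiff libraries, among the highest of the 8 genes there. In Adiff it was at 5.87 and 5.47 TPM, a mean 20.3 times lower. The log2 fold change was -4.11 (SE 0.18, adjusted p = 0.000221), and it passed in all 13 alternative settings. It was the only 1 of the 8 genes that also exceeded an absolute log2 fold change of 1, as 20.4% of genes tested did together with the adjusted p.

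Within the FOXO family, *Foxo1* (chr3:52268336-52353221, plus strand) was at 51.8 and 57.8 TPM in Aundiff and at 28.5 and 31.6 in Adiff. The groups were well apart, and the log2 fold change was -0.85 (SE 0.15, adjusted p = 0.0077). It was -0.77 with an adjusted p of 0.0509 without replicate 2 of WT Aundiff. *Foxo3* (chr10:42181841-42276755, minus strand), which is known to restrain proliferation and promote apoptosis in many tissues, was at 53.9 and 70.4 TPM in Aundiff and at 39.3 and 58.3 in Adiff. Its groups overlapped (log2 fold change -0.36, SE 0.23, adjusted p = 0.259). *Foxo4* (chrX:101254528-101260873, plus strand) was the lowest of the 3, at 16.0 and 22.1 TPM against 14.2 and 11.5 in Adiff. Its groups did not overlap, but the difference missed the threshold (-0.52, SE 0.22, adjusted p = 0.107), and with median-of-ratios scaling it passed at -0.69 (adjusted p = 0.049).

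The AKT kinases diverged. *Akt1* (chr12:112653821-112674884, minus strand) was at 83.1 and 109 TPM in Aundiff and at 169 and 202 in Adiff, every Adiff library above every Aundiff library. Its log2 fold change was 0.95 (SE 0.17, adjusted p = 0.00873), or 0.58 with a correction for transcript GC content added after seeing the data (adjusted p = 0.00577). Fitted with all 12 libraries it did not pass (adjusted p = 0.0955). *Akt2* (chr7:27591552-27640826, plus strand), best known for its part in the insulin response, was at 89.5 and 112 TPM in Aundiff and at 83.6 and 87.4 in Adiff. This difference of -0.22 (95% interval -0.59 to 0.14) did not pass the test (adjusted p = 0.28), though it did with GC correction (-0.35, adjusted p = 0.0325).

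The subunits of the TSC complex also parted. *Tsc2*, which encodes the GTPase-activating subunit (chr17:24595816-24632630, minus strand), was at 61.3 and 66.1 TPM in Aundiff and at 111 and 145 in Adiff. It rose by 0.98 on the log2 scale (SE 0.16, adjusted p = 0.0065) and passed in all 13 alternatives. *Tsc1* (chr2:28641228-28691167, plus strand), whose product stabilizes TSC2, was at 12.5 and 13.3 TPM in Aundiff and at 9.87 and 11.8 in Adiff. The difference of -0.24 (95% interval -0.70 to 0.22, adjusted p = 0.359) did not pass. Of the exonic bases of *Tsc2*, 7.2% overlap exons of *Pkd1* on the other strand, and 7.78% of those of *Foxo1* overlap *Gm20402*, so the values can hold reads of both, since quantification by strand is not stated.

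The promoters of the 4 genes that passed this test are shown, since these genes moved in opposite directions. The sequences are RefSeq promoter windows on GRCm38.p6, 250 bases upstream of the annotated start and read 5′ to 3′ on the strand of the gene. For *Ddit4* the window was shortened to the 186 bases that lie outside the gene. Capitals mark 3 motifs, which do not overlap here. GTAAACA is a binding element of FOXO factors. CCAAT is the CCAAT box. CCGGAAG is an ETS-type motif. Both strands were searched, and on the other strand the first reads TGTTTAC. The CCAAT box there reads ATTGG. The last 2 motifs were chosen after the windows were seen.

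Ddit4, chr10:59951835-59952020, minus strand: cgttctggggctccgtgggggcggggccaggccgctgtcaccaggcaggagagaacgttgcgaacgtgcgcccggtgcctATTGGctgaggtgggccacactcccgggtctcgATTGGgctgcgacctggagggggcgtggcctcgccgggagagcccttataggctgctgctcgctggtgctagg
Foxo1, chr3:52268087-52268336, plus strand: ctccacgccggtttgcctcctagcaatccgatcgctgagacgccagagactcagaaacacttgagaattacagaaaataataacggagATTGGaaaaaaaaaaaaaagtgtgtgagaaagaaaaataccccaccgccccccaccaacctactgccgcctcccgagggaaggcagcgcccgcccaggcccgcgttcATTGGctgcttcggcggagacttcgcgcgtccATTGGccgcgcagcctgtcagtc
Akt1, chr12:112674885-112675134, minus strand: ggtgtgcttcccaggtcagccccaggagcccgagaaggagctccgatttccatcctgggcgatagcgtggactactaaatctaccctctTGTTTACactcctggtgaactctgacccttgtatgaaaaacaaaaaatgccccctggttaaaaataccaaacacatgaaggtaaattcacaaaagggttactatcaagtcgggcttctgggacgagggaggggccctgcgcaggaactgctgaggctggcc
Tsc2, chr17:24632628-24632877, minus strand: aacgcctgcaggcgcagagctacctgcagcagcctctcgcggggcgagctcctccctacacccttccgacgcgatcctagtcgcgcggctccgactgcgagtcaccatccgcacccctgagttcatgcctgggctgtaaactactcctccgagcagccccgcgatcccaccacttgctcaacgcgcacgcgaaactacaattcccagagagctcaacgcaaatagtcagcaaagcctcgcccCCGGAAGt

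The genes that fell held CCAAT boxes, 2 in the *Ddit4* window and 3 in that of *Foxo1*, while neither window of *Akt1* and not that of *Tsc2* held one. The windows of *Foxo3*, *Akt2* and *Tsc1*, which did not pass, held none either. As the motif was chosen with these windows in view, a link to the direction of change was not tested. CCAAT was found in 33.8% of all 32851 windows of 250 bases. The FOXO element was found in 1 of the 11 windows of 7 of these genes, the outer of the 2 *Akt1* windows, 161 bases upstream of the start, and in 3.17% of all windows. CCGGAAG was found 8 bases upstream of the *Tsc2* start and in 6.91% of all windows. Over 250 bases the *Ddit4* and *Foxo1* windows had 70% and 56% GC. These matches describe the letters in the windows and do not show binding. *Foxo4* has no window in the table used.

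Most markers of the sorted cells followed the labels in WT. Of 12 markers of undifferentiated spermatogonia, among them *Ret*, 11 fell in Adiff (summed 1031 to 1159 TPM in Aundiff and 293 to 327 in Adiff), and 6 of 7 markers of differentiating spermatogonia rose, among them *Kit*, whose product was used for sorting, while *Ccnd2* fell by 0.72. Markers of other cells also moved with the comparison. Of the lists for spermatocytes, peritubular myoid, endothelial and red blood cells at most 2 genes passed in any comparison. For red blood cells after Win18446 that was 2 of 2 tested. Of 10 spermatid markers 4 fell, with sums of 860 to 934 TPM in Aundiff and 586 to 779 in Adiff and none at 0. Of 7 Sertoli markers tested in a list of 10, 4 fell, with sums of 296 to 298 and 164 to 182 TPM. Macrophage markers summed to 70.7 to 119 TPM in Aundiff and to 37.6 to 41.3 in Adiff, with 1 of 5 tested lower, *Cd74*. The part of these cells in the results above was not tested.

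The comparison of PRC1cKO with PRC1ctrl after Win18446 asked what the loss of PRC1 changes in Aundiff while differentiation is blocked. Of the 8 genes, the 3 whose products hold mTORC1 down, *Tsc1*, *Tsc2* and *Ddit4*, fell in PRC1cKO, and so did *Foxo1* and *Foxo4*. *Foxo3*, *Akt1* and *Akt2* did not pass the test. That is 5 of 8 genes lower and 0 higher, against 26.7% of the 16521 genes tested that fell and 5.87% that rose, 32.6% in all. The libraries of the same 5 genes did not overlap and lay lower in PRC1cKO, as for 49.3% of genes tested. Scaling bears on this count, because the median log2 fold change of all genes was -0.19 (-0.49 for the 8 genes) and 0.03 after median-of-ratios scaling. There 3 of 8 genes, *Tsc1*, *Tsc2* and *Ddit4*, were lower and 0 higher, against 18.0% lower and 15.4% higher over all genes.

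*Tsc2* was at 109 and 128 TPM in PRC1ctrl and at 46.5 and 57.1 in PRC1cKO. The means differed 2.28 times, and the log2 fold change was -1.18 (SE 0.15, adjusted p = 0.00299). *Tsc1* was at 26.2 and 27.0 TPM in PRC1ctrl and at 11.9 and 14.0 in PRC1cKO, with a log2 fold change of -0.98 (SE 0.14, adjusted p = 0.00416). Both passed in all 13 alternatives, at -0.94 and -0.75 after median-of-ratios scaling. In TPM, PRC1ctrl stood above WT Aundiff for both subunits, while the PRC1cKO libraries overlapped WT Aundiff for *Tsc1* and lay below it for *Tsc2*.

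*Ddit4* was at 255 and 303 TPM in PRC1ctrl and at 163 and 158 in PRC1cKO, the highest of the 8 genes in PRC1ctrl. The groups did not overlap, and it fell by 0.79 on the log2 scale (SE 0.12, adjusted p = 0.0051), or by 0.55 after median-of-ratios scaling (adjusted p = 0.0174). All 4 of these libraries lay above the 2 of WT Aundiff and far above those of WT Adiff.

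*Foxo1* was at 76.7 and 79.0 TPM in PRC1ctrl and at 55.7 and 59.1 in PRC1cKO. The libraries of each label lay close together, with a log2 fold change of -0.43 (SE 0.11, adjusted p = 0.0252), but it did not pass after median-of-ratios scaling (-0.19, adjusted p = 0.156). *Foxo4* was at 20.1 and 26.7 TPM against 14.8 and 16.3 (-0.55, SE 0.17, adjusted p = 0.0494) and likewise did not pass after that scaling (-0.32, adjusted p = 0.165). The calls of both genes were also lost on leaving out replicate 2 of PRC1ctrl or either replicate of PRC1cKO, where adjusted p was 0.0755 to 0.127 for *Foxo1* and 0.127 to 0.224 for *Foxo4*. *Foxo3* was at 82.1 and 106 TPM against 80.1 and 83.1, overlapping groups with a difference of -0.19 (95% interval -0.54 to 0.16) that turned to 0.05 after median-of-ratios scaling.

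The kinases showed the smallest differences of the 8 genes by TPM, although after median-of-ratios scaling they stood at 0.29 for *Akt1* and 0.17 for *Akt2* and did not pass. *Akt1* was at 136 and 158 TPM in PRC1ctrl and at 136 and 170 in PRC1cKO, a difference of 0.05 (95% interval -0.30 to 0.40, adjusted p = 0.822). *Akt2* was at 112 and 118 TPM against 101 and 117, a difference of -0.08 (95% interval -0.36 to 0.21, adjusted p = 0.663). Both intervals overlapped that of *Foxo1* (95% interval -0.70 to -0.17).

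Spermatid markers moved with the genotype label after Win18446, where 7 of the 8 tested in a list of 10 fell. Their sum was 138 to 152 TPM in PRC1ctrl and 24.2 to 26 in PRC1cKO, where *Prm2*, *Acrv1* and *Gapdhs* were at 0. Leydig cell markers summed to 85.2 to 427 TPM in PRC1ctrl and to 23.4 to 83.3 in PRC1cKO, and 0 of 6 tested passed. Macrophage markers summed to 40.6 to 60.1 and 89.8 to 139 TPM, with 1 of 6 tested higher, *Cd74* (log2 fold change 2.29). *C1qa*, *C1qb*, *Cd68*, *Csf1r* and *Lyz2* lay the other way, at -0.58 to -0.13, and did not pass. Red blood cell markers summed to 6.8 TPM in PRC1ctrl and to 0.1 to 0.2 in PRC1cKO, with 2 of 2 tested lower. Markers of undifferentiated spermatogonia summed to 943 to 1049 TPM in PRC1ctrl and to 723 to 826 in PRC1cKO, with 2 of 12 lower, and of 7 markers of differentiating spermatogonia 5 rose and *Stra8* fell by 0.49. Their part in the results was not tested.

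**Figure D2:**
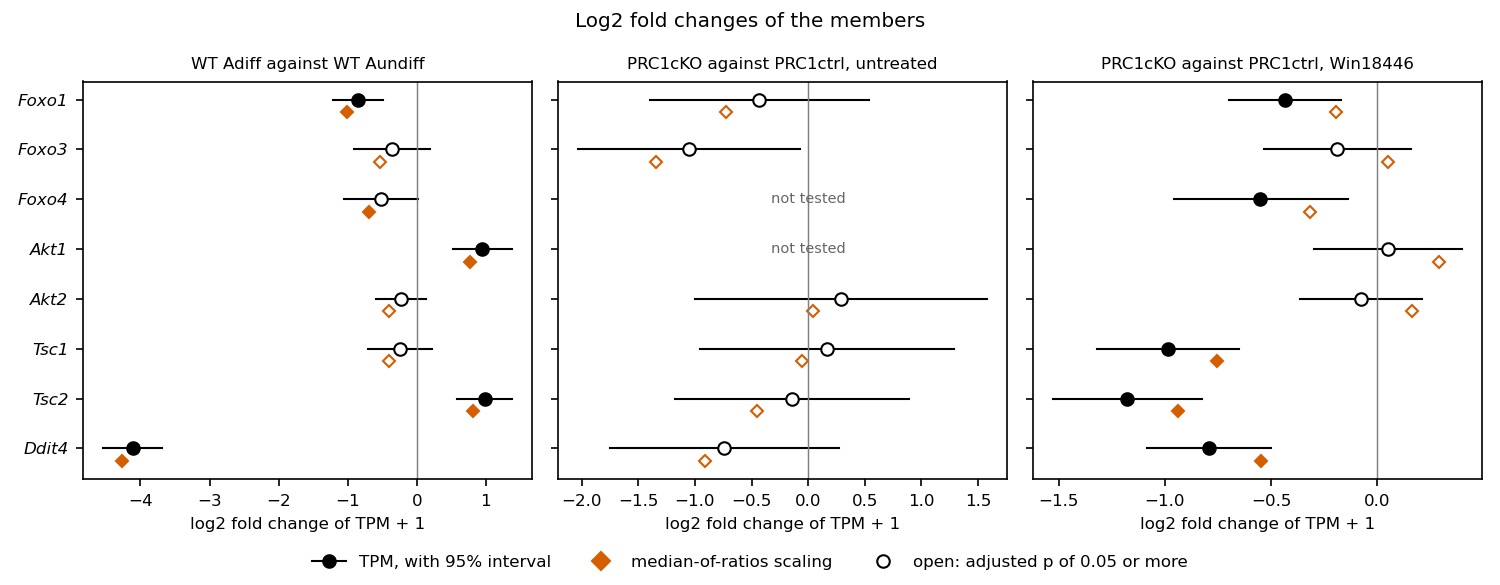
Log2 fold changes of TPM + 1 for the 8 genes in 3 comparisons, as circles with 95% intervals, and after median-of-ratios scaling as diamonds, with open symbols where adjusted p was 0.05 or more. *Tsc1*, *Tsc2* and *Ddit4* stayed filled under both scalings after Win18446, while *Foxo1* and *Foxo4* did not.

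In untreated Aundiff at 2 months, 0 of the 6 genes that could be tested passed, against 2.16% of the 13953 genes tested. At an unadjusted p under 0.05 there was 1, *Foxo3*. It was at 18.9 and 15.0 TPM in PRC1ctrl and at 6.70 and 8.66 in PRC1cKO, a mean 2.21 times lower with no overlap. Its log2 fold change was -1.05 (SE 0.39, adjusted p = 0.313), and over the 13 alternatives its adjusted p ranged from 0.0254 to 1, with a pass in 2 of them.

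*Foxo1* was at 18.2 and 25.1 TPM in PRC1ctrl and at 18.0 and 13.5 in PRC1cKO, a difference of -0.43 (95% interval -1.40 to 0.53, adjusted p = 0.66). *Ddit4* was at 1.46 and 2.10 TPM against 0.28 and 1.14 (-0.74, 95% interval -1.75 to 0.27, adjusted p = 0.499). For both genes the libraries did not overlap and lay lower in PRC1cKO, as they did for 17.3% of genes tested. *Tsc2* was at 44.5 and 25.5 TPM against 25.8 and 36.1, and *Tsc1* at 1.61 and 1.82 against 1.27 and 3.07. *Akt2* was at 2.33 and 3.27 TPM against 2.2 and 5.64. The libraries of these 3 genes overlapped, with intervals of -1.18 to 0.89, -0.96 to 1.28 and -0.997 to 1.58 on the log2 scale, and the lower bounds for *Tsc2* and *Tsc1* lay close to the differences measured after Win18446.

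*Akt1*, at 0.57 and 0.74 TPM in PRC1ctrl and 0.36 and 2.55 in PRC1cKO, and *Foxo4*, at 0.10 and 0.18 against 0.21 and 0.45, did not reach 1 TPM in 2 libraries and were not tested. The sum of the spermatid markers was 780 to 1847 TPM in PRC1ctrl and 59.1 to 65.2 in PRC1cKO, with 5 of 8 tested lower. Macrophage markers summed to 10.4 to 119 and 139.9 to 705 TPM, with *Csf1r* and *C1qa* at 0 in PRC1ctrl, and 0 of 3 tested passed. Markers of undifferentiated spermatogonia summed to 956 to 1228 TPM in PRC1ctrl and to 454 to 533 in PRC1cKO, with 1 of 12 lower, *Nanos3*. Markers of differentiating spermatogonia summed to 261 to 336 and 567 to 721 TPM, and spermatocyte markers to 467 to 569 and 683 to 789 TPM. In each of these lists 0 of 7 tested passed. Leydig cell markers summed to 1.3 to 1.4 and 22.3 to 62.3 TPM, with *Hsd3b1* higher. The part of these cells in the results was not tested.

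A direct test of the difference between the treated and untreated effects called 0 of the 8 genes, against 7.81% of the 18354 genes tested. At an unadjusted p under 0.05 there were 2 genes, *Foxo3* (0.86 on the log2 scale, SE 0.35, adjusted p = 0.187) and *Tsc1* (-1.15, SE 0.44, adjusted p = 0.166). A positive sign means that the difference between PRC1cKO and PRC1ctrl was more positive after Win18446. *Tsc2* gave -1.03 (adjusted p = 0.215) and *Foxo4* -0.77 (adjusted p = 0.21). The median over all genes was -0.41, so part of the negative values is shared with the whole table. After median-of-ratios scaling *Tsc1* gave -0.53, *Tsc2* -0.33 and *Foxo4* -0.40, while *Foxo3* gave 1.58 and did not pass (adjusted p = 0.0928). The falls of *Tsc1* and *Tsc2* were not shown to be specific to the treated mice. Kit and treatment cannot be told apart in this test.

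Ratios of related genes within a library do not depend on library scaling. With 2 libraries against 2 the exact permutation test cannot give less than p = 0.333, so the library values carry the description. The log2 ratio of *Akt1* to *Akt2* was -0.11 and -0.04 in WT Aundiff and 1.01 and 1.21 in WT Adiff, where *Akt1* RNA was 2.16 times as abundant as *Akt2* (exact permutation test, two-sided, p = 0.333). After Win18446 it was 0.28 and 0.43 in PRC1ctrl and 0.44 and 0.53 in PRC1cKO. *Tsc2* exceeded *Tsc1* in every library. The log2 ratio of *Tsc1* to *Tsc2* was -2.29 and -2.31 in WT Aundiff and -3.49 and -3.62 in WT Adiff, an excess of *Tsc2* that went from 4.93 to 11.8 times. After Win18446 it was -2.05 and -2.24 in PRC1ctrl and -1.96 and -2.02 in PRC1cKO, so both subunits were lower in PRC1cKO by similar factors.

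In the FOXO family, *Foxo1* and *Foxo3* RNA stood near parity in WT Aundiff (log2 ratios -0.06 and -0.28), and *Foxo3* exceeded *Foxo1* by 1.6 times in WT Adiff (-0.46 and -0.88). *Foxo1* was 2.91 times as abundant as *Foxo4* in WT Aundiff and 2.35 times in WT Adiff, with overlapping libraries. In untreated PRC1ctrl *Foxo1* exceeded *Foxo4* by 159 times, far from the TruSeq libraries. *Foxo4* stood at 0.10 and 0.18 TPM there, too low to be tested, so this ratio has little precision.

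**Figure D3:**
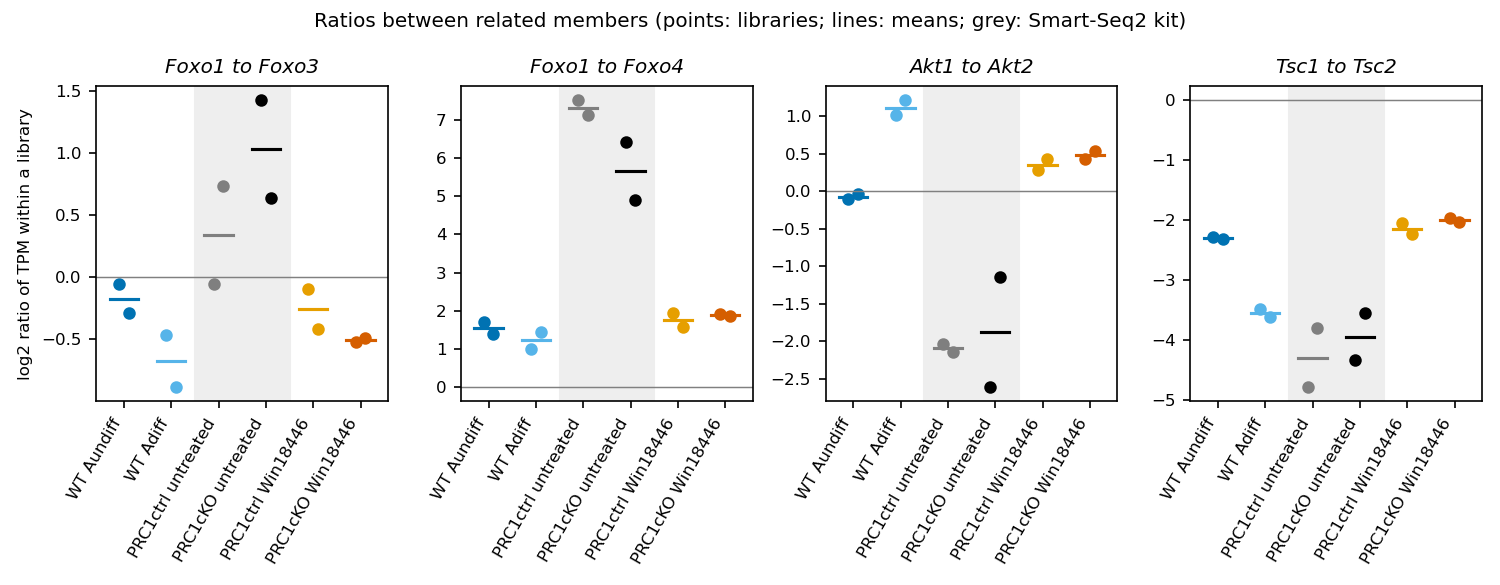
Log2 ratios of TPM between related genes in each library (points) with group means (lines), and the Smart-Seq2 libraries shaded. *Akt1* to *Akt2* lay near 0 in WT Aundiff and above 1 in WT Adiff, and *Tsc1* to *Tsc2* went from about -2.3 to -3.56 on average.

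The low levels in the untreated PRC1 libraries were not alike for the 8 genes. Between untreated PRC1ctrl and WT Aundiff, the difference on the log2(TPM + 1) scale was -5.86 for *Akt1*, -5.38 for *Ddit4*, -4.74 for *Akt2* and -4.12 for *Foxo4*. It was -2.36 for *Tsc1*, -1.81 for *Foxo3*, -1.32 for *Foxo1* and -0.90 for *Tsc2*. The median over all 14916 genes was -0.875, close to the value of *Tsc2*. These groups differ in kit, strain and genotype together. Over 14916 genes the same difference fell with the GC content of the longest transcript, from a median of 0.37 for genes under 45% to -2.26 for genes of 60% and more (Pearson r = -0.528 and Spearman rho = -0.549 across genes, which are not independent replicates). The longest *Akt1* transcript has 59.7% GC, that of *Ddit4* 57.9%, and those of *Akt2* and *Foxo4* 55.2%, the 4 highest of the 8. *Tsc2* was exceptional at 54.7% GC with a difference above the median of its class, -1.43. The part of GC content in the differences of the 8 genes was not tested. The PRC1cKO and PRC1ctrl libraries compared above were always of 1 kit.

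**Figure D4:**
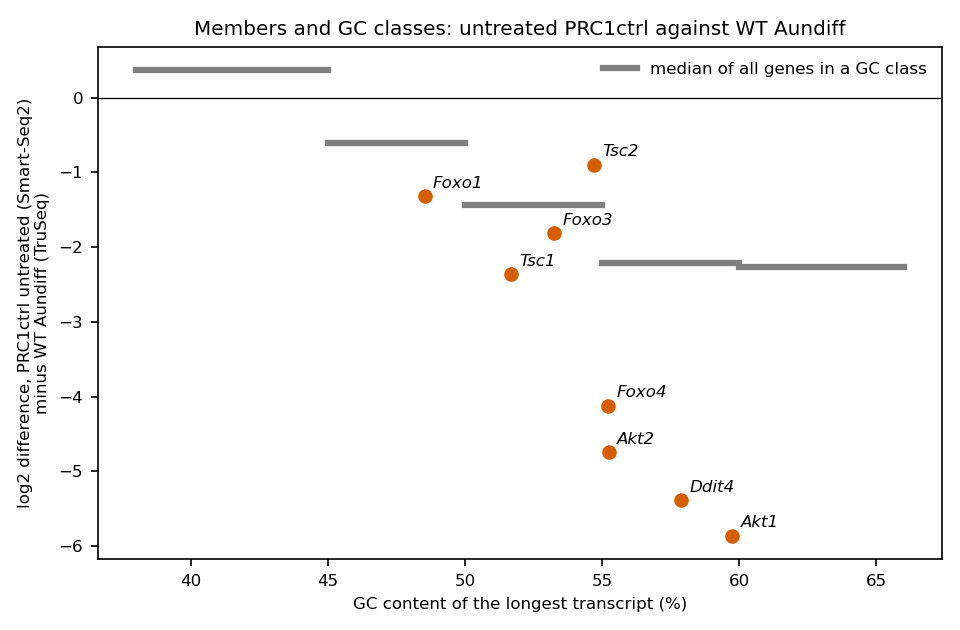
Difference on the log2(TPM + 1) scale between untreated PRC1ctrl Aundiff and WT Aundiff against the GC content of the longest transcript in percent, for the 8 genes (points) and as the median of all genes in 5 GC classes (grey lines, the outer classes open-ended). *Foxo4*, *Akt2*, *Ddit4* and *Akt1*, at 55.2% GC or more, lay at -4.12 or lower, below the medians of -2.22 and -2.26 of the upper 2 classes.

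The other genes of the pathway were taken from a list of 96 genes in 8 roles. In WT, 86 were tested, of which 20 rose, 23 fell and 43 did not pass, against 23.4% higher and 14.7% lower over all genes tested. After median-of-ratios scaling 17 rose, and *Mapkap1*, *Pik3cb* and *Lamtor3*, described with their roles, were no longer among them (adjusted p of 0.147, 0.0708 and 0.103). Without replicate 1 of WT Aundiff 27 passed. The median log2 fold change of the 86 genes was 0.02, and that of all genes 0.15. Counts by role in WT are to be read beside the same 23.4% and 14.7%, and no role was tested as a set. Genes named from here on by role were in part chosen after their values were seen, where 5 or fewer of a role passed.

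Upstream of AKT, 5 of 9 PI3K genes tested fell in WT Adiff and 1 rose. Those that fell were *Pik3cd* (35.5 to 45.5 TPM in Aundiff and 9.2 to 10.2 in Adiff), *Irs2*, *Pik3ca*, *Irs4* and *Pik3ip1*, the last an inhibitor of PI3K, and the catalytic subunit gene *Pik3cb* rose from 14.2 to 15 TPM to 22 to 23.7. Of 7 phosphatase genes tested 3 rose and 0 fell. Among them *Phlpp1*, which encodes a phosphatase that removes an activating phosphate from AKT, was at 1.55 and 1.94 TPM in Aundiff and at 12.7 and 12.8 in Adiff (log2 fold change 2.33, SE 0.22, adjusted p = 0.00151). *Phlpp2* and *Inpp5k* also rose, by 0.94 and 0.76.

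Among kinases near AKT, *Pdpk1*, which phosphorylates AKT, and *Gsk3a* rose (0.86 and 0.97), and *Sgk1*, *Sgk3* and *Tcl1* fell. *Tcl1*, a coactivator of AKT, was at 58.3 and 60.9 TPM in Aundiff and at 2.42 and 2.26 in Adiff (-4.18, SE 0.18, adjusted p = 0.000221). In the mTOR complexes *Mtor*, *Rheb* and *Mapkap1* rose, and *Rhebl1* and *Prr5l* fell. *Mtor* went from 46.3 to 57.7 TPM to 95 to 114, and *Rheb*, whose GTPase is the direct target of TSC2, from 40.8 to 48.2 to 78.2 to 84.3. *Rhebl1*, a relative of *Rheb*, went from 42.1 to 45.1 TPM to 9.77 to 10.2.

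Of 19 genes for amino acid and energy input, 4 rose and 3 fell, near the 23.4% and 14.7% of all genes tested. *Castor1*, the arginine sensor, was at 2.34 and 4.87 TPM in Aundiff and at 19.2 and 19.5 in Adiff (2.2, SE 0.30, adjusted p = 0.00367), and *Rragd*, a Rag GTPase that tethers mTORC1 to the lysosome, fell by 2.77. The others were *Stk11*, *Lamtor3* and *Prkag2*, which rose, and *Prkab1* and *Prkag1*, which fell. Of 5 stress-related inhibitors *Sesn1* and *Trib3* fell (-1.75 and -1.73), the same direction as *Ddit4*. Among 12 effectors, *Ulk1*, the kinase that starts autophagy, rose from 16.6 and 23.9 TPM to 60.3 and 68.5 (1.64, SE 0.20, adjusted p = 0.00272), *Tfeb* and *Rps6kb1* rose as well, and *Eif4b* fell.

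The list of FOXO targets and *Foxo6* moved both ways in WT, with 7 of 16 genes tested lower and 4 higher, all of them targets. *Cdkn1b*, the cell cycle inhibitor p27, was at 31.4 and 31.6 TPM in Aundiff and at 0.36 and 1.3 in Adiff (-4.20, SE 0.30, adjusted p = 0.000866). *Ret*, the GDNF receptor kinase, was at 96.7 and 124 TPM against 5.73 and 5.60 (-4.05, SE 0.18, adjusted p = 0.000221). The antioxidant genes *Sod2* and *Cat* and the mitophagy and apoptosis genes *Bnip3* and *Bcl2l11* rose, by 0.58 to 1.23. The list thus had no common direction.

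After Win18446, 91 pathway genes were tested, of which 3 rose and 33 fell in PRC1cKO, against 5.87% and 26.7% over all genes, while their median of -0.26 lay close to the -0.19 of all genes. After median-of-ratios scaling 22 fell, all among the 33, and 12 rose, among them the 3. The 12 also held *Lamtor2*, *Lamtor4* and *Lamtor5* (0.46, 0.54 and 0.65), and *Eif4ebp1*, *Sgk1* and *Tcl1*. The predominance of falls therefore depends on the scaling. In all 36 passed, and 9 did without replicate 1 of PRC1cKO and 19 without replicate 2. *Rictor*, the defining subunit of mTORC2, was at 70.3 and 82.3 TPM in PRC1ctrl and at 25.7 and 29.3 in PRC1cKO (-1.44, SE 0.14, adjusted p = 0.00202). *Rptor*, its counterpart in mTORC1, and *Mtor* also fell, by 0.95 and 0.77, and these 3 were the ones of 12 mTOR complex genes that passed. All 3 remained lower after median-of-ratios scaling.

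*Inpp4a*, a lipid phosphatase, was at 8.82 and 9.75 TPM in PRC1ctrl and at 3.03 and 4.58 in PRC1cKO (-1.11, SE 0.20, adjusted p = 0.00847), and *Phlpp2*, *Inppl1* and *Phlpp1* fell too. *Eif4ebp3*, a translation repressor, was at 4.25 and 4.05 TPM against 0.75 and 1.93 (-1.19, SE 0.27, adjusted p = 0.0175). Of the PI3K genes *Pik3ca*, *Pik3cd*, *Irs2*, *Pik3cb* and *Pik3r1* fell. Of 6 stress-related mTORC1 inhibitors tested, *Sesn1* and *Trib3* fell by 0.72 and 0.45, and 4 did not pass. Of 16 genes in the list of FOXO targets and *Foxo6*, 6 fell (*Ccng2*, *Igf1r*, *Bcl6*, *Insr*, *Cdkn1b* and *Fbxo32*) and 0 rose. After median-of-ratios scaling 2 of that list were lower, *Ccng2* and *Igf1r*, and 2 higher, *Sod2* and *Pink1*. *Irs2*, *Pik3r1*, *Phlpp1* and *Trib3* also did not pass then (adjusted p of 0.0623, 0.0713, 0.105 and 0.204), and *Sesn3* rose (0.55, adjusted p = 0.0111). The 3 genes that rose were *Castor1*, from 3.95 and 4.35 TPM to 8.65 and 8.71 (0.91, SE 0.16, adjusted p = 0.00687), *Pik3cg* (0.68, SE 0.18, adjusted p = 0.0286), at 1.75 TPM or less, and *Lamtor1* (0.39, SE 0.12, adjusted p = 0.0414).

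In untreated Aundiff 74 pathway genes were tested and 0 passed by limma (5 at an unadjusted p under 0.05), with the largest difference in each direction in *Rps6kb2* (0.07 and 0.67 TPM in PRC1ctrl, 1.80 and 4.67 in PRC1cKO, 1.58, adjusted p = 0.226) and *Cdkn1b* (8.45 and 7.01 TPM against 1.44 and 1.67, -1.77, adjusted p = 0.109). After median-of-ratios scaling *Cdkn1b* passed, at -2.0 (adjusted p = 0.0232). Over all genes tested 2.16% passed untreated. In the interaction 0 of 92 passed by limma (16 at an unadjusted p under 0.05), against 7.81% of all genes, and the same genes gave the largest value in each direction, -1.80 for *Rps6kb2* (adjusted p = 0.104) and 1.26 for *Cdkn1b* (adjusted p = 0.067).

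**Figure D5:**
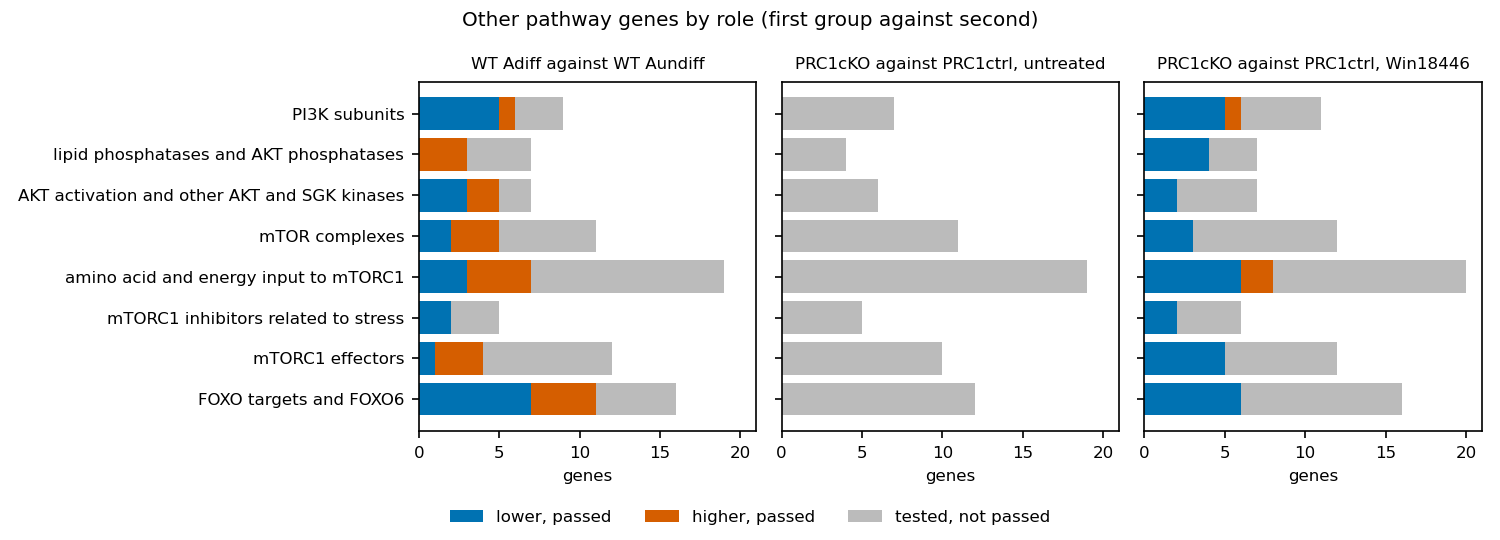
Number of other pathway genes in each of 8 roles that were lower, higher or did not pass the test, in 3 comparisons. In WT 20 genes were higher and 23 lower, in untreated Aundiff 0 passed, and after Win18446 3 were higher and 33 lower in PRC1cKO.

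Across the 12 libraries the genes most like each of the 8 were ranked among 14931 genes by Pearson r of log2(TPM + 1), as a description in which the 4 low Smart-Seq2 libraries weigh heavily. For *Ddit4* they were *Tbx3*, *Zdhhc14* and *Eml2* (r of 0.995 to 0.997), and these held at 0.991 to 0.993 over the 8 TruSeq libraries, a subset chosen after seeing the data. For *Foxo1* they were *Eml2*, *Ttc39c* and *Slc35e3* (0.983 to 0.984, and 0.988 to 0.992 over the 8). *Eml2* was thus near both, and *Foxo1* and *Ddit4* themselves had r of 0.971 over 12 and 0.975 over 8 libraries. For *Tsc1* they were *Eif2ak4*, *Dennd5a* and *Fam193b* (0.994 to 0.997), and for *Tsc2* *Ccdc157*, *Pou2f1* and *Brca1* (0.964 to 0.98).

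For *Akt1* (*Ncln*, *Adcy3*, *Prcc*), *Akt2* (*Arhgef7*, *Ube2z*, *Anxa11*) and *Foxo4* (*Wdr59*, *Mink1*, *Rarg*) r was 0.997 to 0.999 over 12 libraries and 0.769 to 0.972 over 8. For *Foxo3* (*Sox30*, *Dicer1*, *Igsf11*) it was 0.98 to 0.987 and 0.703 to 0.932. *Akt1* and *Akt2* had r of 0.992 over 12 libraries but -0.025 over the 8 TruSeq libraries, and *Tsc1* and *Tsc2* 0.812 and 0.348. The 4 libraries left out differ from the others in more than the kit.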

How the data were processed

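The authors deposited TPM for 55385 genes in 12 libraries, computed with RSEM. Per the labels' processing notes their tools were Trim Galore 0.6.6, HISAT2 2.2.1, SAMtools 1.9, RSEM 1.3.3, HTSeq 1.6.0 and DESeq2 1.28.1. TPM keep no read number, so depth and counting error are unknown, and a rise of some genes lowers all others.

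Values were taken as log2(TPM + 1) where 2 or more of the libraries fitted reached 1 TPM. Tests used limma 3.58.1 under R 4.3.3 (trend and robust options, two-sided) on the 4 libraries of each comparison, or the 8 of the PRC1 mice for the interaction of label and treatment, with Benjamini-Hochberg adjustment over all genes tested. The replicates are stated to be independent. The script was tested on simulated data. Figures and tables used Python 3.11.15, pandas 2.3.3, numpy 2.4.6 and matplotlib 3.10.9. Coordinates are those of the table and equal gencode vM21 (GRCm38) for the 8 genes.

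The 8 genes, the lists of 96 pathway genes and of cell type markers, and the tests were chosen with earlier results of these data known. Named by rule were the 8 genes, *Rnf2* and *Ring1*, and the 3 genes most like each of the 8. The rule also took the 3 largest changes in each direction among pathway genes that passed, or the single largest where none did. Further pathway genes were named by role, in part after their values were seen. Alternatives were a pseudocount of 0.1, median-of-ratios scaling, no filter, quantile normalization, a minimum mean of 5 TPM, a replicate block, limma without trend and robust options, all 12 libraries in 1 fit, leaving out each library, and, added after seeing the data, a correction for GC content.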

Additional observations from a re-analysis of the deposited data

How the results depend on the processing

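Of 419 refits of single genes among the 8, 355 kept direction and side of the threshold, 21 lost a call, 8 gained one and 35 changed sign. No gene that had passed changed sign. With 2 libraries a group, a left-out fit rests on a lone library that is assumed to vary like the others, and depth is unknown.

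Genes that passed in WT (5892) numbered 3839 without the filter and 2765 to 5668 on leaving out a library, and pathway genes (43) 27 to 48. Of the 8 genes 3 to 5 passed then (4 in the full fit): *Foxo1* was lost without replicate 2 of WT Aundiff. Fitted over all 12 libraries, *Akt1* was lost (adjusted p = 0.0955). With GC correction 6 passed, *Foxo4* and *Akt2* in addition.

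Untreated, genes that passed (301) numbered 0 without the filter, 96 at a mean TPM of at least 5, 917 with median-of-ratios scaling, 703 with quantile normalization, 2793 with the replicate block, 2156 over all 12 libraries, 982 with GC correction and 78 to 168 with a library left out. *Foxo3* passed (1 of 6) with the block and over all 12 libraries. Pathway genes (0) numbered 1 with median-of-ratios scaling, quantile normalization or GC correction, 10 with the block and 8 over all 12 libraries.

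After Win18446, genes that passed (5385) numbered 3063 without the filter, 3548 at the higher filter, 2342 over all 12 libraries and 2103 to 4338 with a library left out. Median-of-ratios scaling turned the split from 970 higher and 4415 lower to 2538 and 2982. Of the 8 genes (5) 3 passed without the filter, with median-of-ratios scaling, quantile normalization or no trend, 2 over all 12 libraries, where *Ddit4* was lost, and 3 to 5 with a library left out. Pathway genes (36) numbered 19, 6 and 9 to 34 without the filter, over all 12 libraries and with a library left out, lowest without replicate 1 of PRC1cKO.

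In the interaction, genes that passed (1433) numbered 470 with the pseudocount of 0.1, 931 without the filter, 176 at the higher filter, 2196 over all 12 libraries and 21 to 1443 with a library left out. The lowest, 21 to 117, came without any 1 of the Win18446 libraries. *Tsc1* passed (1 of 8, otherwise 0) without replicate 1 of untreated PRC1cKO. Pathway genes (0) numbered 1 with median-of-ratios scaling or no trend, 2 with quantile normalization, all 12 libraries or GC correction, 3 with the block and 0 to 4 with a library left out.

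Sign changes were all of differences that had not passed. Untreated, *Akt2* gave -0.059 and *Tsc1* -0.08 with GC correction, *Tsc1* -0.057 with median-of-ratios scaling, and with a library left out *Akt2* ranged from -0.24 to 0.82, *Tsc1* from -0.26 to 0.58 and *Tsc2* from -0.53 to 0.25. After Win18446, *Foxo3* gave 0.052 and *Akt2* 0.17 with median-of-ratios scaling, *Akt2* 0.021 with quantile normalization and 0.051 with GC correction, and with a library left out *Akt1* ranged from -0.11 to 0.21 and *Akt2* from -0.18 to 0.032. In the interaction, median-of-ratios scaling gave 0.70, 0.18, 0.27 and 0.68 for *Foxo1*, *Akt1*, *Akt2* and *Ddit4*, GC correction 0.35, 0.001, 0.044 and 0.35, the pseudocount of 0.1 gave 0.012 and 0.64 for *Foxo1* and *Ddit4*, and quantile normalization 0.23 and 0.025. With a library left out these ranged from -0.22 to 0.22, -1.05 to 0.33, -0.89 to 0.16 and -0.42 to 0.32. The number of genes highest in PRC1ctrl after Win18446 went from 6 to 3 with median-of-ratios scaling. The cause was not tested for any of these.

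The labels link libraries only by a replicate number. Deviations of same-numbered libraries correlated at 0.158 in WT, 0.381 untreated, 0.122 after Win18446 and -0.0231 to 0.348 in the interaction. Untreated, 12422 genes in PRC1ctrl and 12451 in PRC1cKO reached 1 TPM in replicate 1, against 13986 and 13826 in replicate 2. The main fit does not model such a shared difference. With the replicate block 7210 genes passed in WT, 2793 untreated, 6518 after Win18446 and 1596 in the interaction. Besides *Foxo3* untreated, *Foxo3* in WT passed with it (adjusted p = 0.042), and no other call of the 8 genes changed.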
